A study of Homo sapiens with 24 samples.

Results

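The comparison of CID661578 with DMSO in total RNA covered 8 of the 24 libraries of a polysome profiling study in PANC-1 cells, an established human line of pancreatic ductal adenocarcinoma. Its members were chosen by label: the 4 total RNA libraries of plates given 40 µM CID661578 for 6 hours and the 4 of plates given the vehicle DMSO for the same time. Total RNA here means cytosolic RNA from an aliquot of each lysate, taken before the rest was run on a sucrose gradient. The other libraries held the polysome-associated RNA of the same plates, and both kinds of RNA after 5 µM cercosporamide. The table listed 54583 genes, of which 25079 had a count in the 8 libraries and 14601 had no 0 in any of them and were tested. The plates carried replicate numbers 1 to 4, which the methods treat as batches, so each CID661578 library was compared with the DMSO library of the same number. All plates came from 1 cell line and 1 time point.

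CID661578 is a small molecule that the study links to MNK2, 1 of 2 kinases that phosphorylate eIF4E, the protein that binds the cap of mRNAs. Total RNA here gives the amount of each transcript in the cytosolic lysate, whatever its translation, and what set that amount was not tested. Several programmes are known to change transcript amounts within hours. In the integrated stress response, kinases that sense stress phosphorylate eIF2, translation of the transcription factor ATF4 goes up, and ATF4 with its partners induces genes such as DDIT3 (CHOP), TRIB3 and CHAC1. Cells short of oxygen stabilise hypoxia-inducible factors, which induce glucose transport and glycolysis. The mitochondrial genome is read from both strands into long precursors, and its tRNAs lie between the mRNAs and rRNAs and are cut out of them.

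Libraries held 10336149 to 12184749 reads on genes, and the genes tested took 99.9% of them in each. The markers fixed for duct cells were present: KRT8, KRT18 and KRT19 each stood at 679 CPM or more in every library. CPM are reads per 1000000 reads on genes, with library totals scaled between libraries. Of 11 endocrine markers, among them INS and GCG, 7 had no count in any of the 8 libraries and their summed level stayed below 1 CPM, and 5 of 7 acinar markers had no count. The DMSO library of replicate 3 stood apart in stress genes, as described below, and the main results are also given without it. The values have no spike-in scale, so each change is relative to the other RNAs of the library, and fewer cells of a kind cannot be told apart from less RNA per cell.

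CID661578 raised 129 genes and lowered 50 at an adjusted p below 0.15, the threshold of the study's methods, with no minimum fold change. That was 0.884% of the genes tested called higher and 0.342% called lower. At an adjusted p below 0.05 there were 62 and 25. The median log2 fold change was 1.27 among genes called higher and -1.45 among those called lower, against -0.0036 over all genes tested. Of the genes called higher, 106 were higher in each of the 4 replicate pairs, and 42 of those called lower were lower in each. The 4 CID661578 libraries lay wholly above the 4 DMSO libraries for 40 genes called higher and wholly below for 23 called lower, and over all genes tested such separation was seen for 1.00% upwards and 1.24% downwards. The calls rest on the pairing of plates: without the replicate block, 8 genes were called higher and 11 lower. Leaving out replicate 4 gave 34 higher and 18 lower, and leaving out replicate 2 gave 47 and 31.

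**Figure D1:**
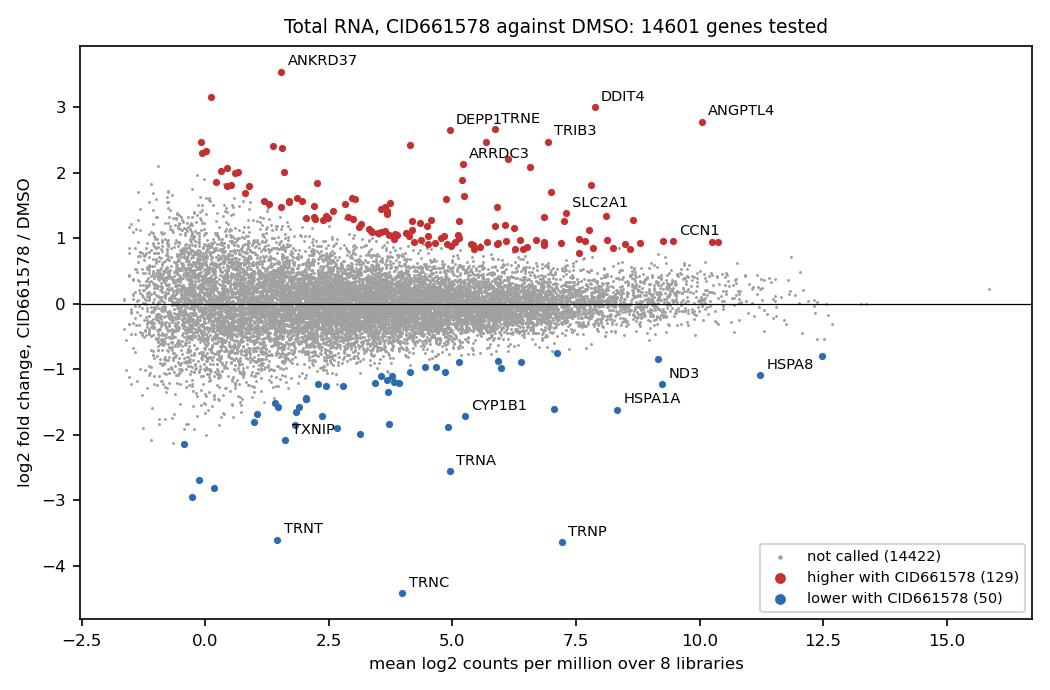
Log2 fold change of CID661578 over DMSO in total RNA (vertical axis) against the mean log2 CPM over the 8 libraries (horizontal axis), 1 point a gene. Red points are the 129 genes called higher and blue points the 50 called lower, with the mitochondrial tRNAs TRNC, TRNP and TRNT lowest and ANKRD37 and DDIT4 highest among the genes labelled.

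The 3 lowest fold changes of all genes tested were those of mitochondrial tRNAs. Of the 22 tRNA genes of the mitochondrial genome, all tested, 9 fell, 1 rose and 12 did not pass, and the median log2 fold change of the 22 was -1.11. The share called lower was 40.9%, beside 0.342% of all genes tested. Without the replicate block 4 of the 22 were called lower. With no 0 allowed in the 24 libraries of the study 5 were called lower, and TRNC, TRNT, TRNI and TRNH were then not tested. Sequences are given for the tRNAs that moved furthest in each direction, since the reads are assigned to them by sequence alone. They were read from the mitochondrial chromosome of GRCh38 on the strand of the gene, and the capitals mark the anticodon. TRNP (MT:15956-16023, minus strand) is the tRNA for proline, TRNC (MT:5761-5826, minus strand) that for cysteine, and TRNE (MT:14674-14742, minus strand) that for glutamate.
TRNP: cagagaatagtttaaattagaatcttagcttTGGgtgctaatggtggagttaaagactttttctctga
TRNC: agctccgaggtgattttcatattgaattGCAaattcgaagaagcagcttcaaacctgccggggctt
TRNE: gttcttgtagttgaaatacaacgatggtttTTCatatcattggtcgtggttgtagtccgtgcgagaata

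TRNP, next to the control region, read 359, 413, 152 and 173 CPM with DMSO and 18.1, 33.8, 8.82 and 29.8 CPM with CID661578, in the order of replicates 1 to 4. Every CID661578 library lay below every DMSO library (log2 fold change -3.64, SE 0.27, adjusted p = 9.96e-17). TRNC fell from 6.79, 52.6, 18.9 and 39.7 CPM to 0.524, 5.39, 0.173 and 1.07 CPM, again with no overlap (log2 fold change -4.42, SE 0.39, adjusted p = 1.87e-13). Its counts with CID661578 were only 6, 53, 2 and 11 reads, so the size of its fall is known only roughly. TRNT, the tRNA for threonine, which lies beside TRNP on the other strand, fell from 7.96, 5.79, 2.13 and 3.25 CPM to 0.437, 0.61, 0.173 and 0.293 CPM (log2 fold change -3.60, SE 0.51, adjusted p = 1.34e-06). In the cluster of light-strand tRNAs that holds TRNC, TRNA (alanine) changed by -2.55, TRNN (asparagine) by -1.88 and TRNY (tyrosine) by -1.98 on the log2 scale, with adjusted p of 8.39e-09, 2.02e-06 and 2.60e-04. TRNI (isoleucine), TRNQ (glutamine) and TRNH (histidine) fell by 1.90, 0.98 and 1.69 on the log2 scale, with adjusted p of 9.26e-04, 0.0491 and 0.117. Without replicate 3 TRNQ and TRNH did not pass, at -0.75 (adjusted p = 0.444) and -1.64 (adjusted p = 0.214), and TRNH did not with DESeq2, at -1.72 (adjusted p = 0.164).

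TRNE went the other way. It read 14.1, 23.8, 8.05 and 14 CPM with DMSO and 84.2, 187, 44.6 and 85.8 CPM with CID661578, higher in each pair and without overlap (log2 fold change 2.66, SE 0.25, adjusted p = 4.46e-12). The nuclear gene MTND6P3, a copy of mitochondrial ND6 on chr5:94568929-94569470, rose from 4.46, 7.19, 3.61 and 4.37 CPM to 23.4, 61.2, 11.3 and 24.8 CPM (log2 fold change 2.42, SE 0.31, adjusted p = 7.10e-08). The reference holds a sequence identical to TRNE in all 69 bases at chr5:94569467-94569535, and 4 of these bases lie inside MTND6P3, so reads that reach those bases are shared between the genes. The nuclear copy MTCO1P2 on chr14:32484093-32485122 holds a sequence identical to TRNA and 97.0% copies of TRNC and TRNY, and it fell with them (log2 fold change -1.84, SE 0.32, adjusted p = 1.52e-04).

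The light strand codes for 8 of the 22 tRNAs, a split made after these values were seen. Of those 8, 6 fell, TRNE rose, and their median log2 fold change was -1.93. Of the 14 on the heavy strand 3 fell, none rose, and their median was -0.96. Summed over the 22 genes, mitochondrial tRNA took 0.0537%, 0.0932%, 0.0408% and 0.0575% of the reads with DMSO and 0.0203%, 0.0449%, 0.0102% and 0.0231% with CID661578. It was lower in 4 of 4 pairs, which gives p = 0.125 in a two-sided exact permutation test within pairs, the smallest p that 4 pairs allow. Counting did not use strand, so reads of overlapping genes on the opposite strands cannot be told apart, and whether reads came from the free tRNA or from an uncut precursor was not tested.

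The mRNAs of the mitochondrial genome moved less. Of 13, all coding for subunits of the respiratory chain, 2 fell (15.4%, beside 0.342% of all genes tested) and 11 did not pass. The median log2 fold change of the 13 was -0.43. ND3, a complex I subunit, read 856, 975, 829 and 706 CPM with DMSO and 205, 442, 427 and 413 CPM with CID661578 and did not overlap between treatments (log2 fold change -1.23, SE 0.23, adjusted p = 6.96e-04). COX2, a complex IV subunit, read 9949, 4653, 5980.0 and 8301 CPM and 4316, 4946, 2443 and 4793 CPM, lower in 3 of 4 pairs with overlap (log2 fold change -0.81, SE 0.24, adjusted p = 0.134). Without replicate 3 COX2 stood at -0.64 (adjusted p = 0.529) and no longer passed. The other 11 lay between -0.68 for ND6 and -0.12 for ATP8. The share of reads on the 13 mRNAs was 4.00% ± 0.962 with DMSO and 2.76% ± 0.877 with CID661578 (SD, n = 4), lower in 3 of 4 pairs (exact permutation test within pairs, two-sided, p = 0.25). Without replicate 3 the estimates of ND1, ND4L, ND5, COX1, ATP6 and ATP8 turned to above 0, up to 0.33 for ND5. The rRNAs RNR1 and RNR2 had log2 fold changes of 0.40 and 0.22 and did not pass (adjusted p = 0.762 and 0.958). Of 27 tested nuclear genes for mitochondrial transcription and RNA processing 0 passed in edgeR's test, DESeq2 or limma, and 3 had an unadjusted p below 0.05, all lower. Of 78 nuclear genes of the respiratory chain 0 passed in any of the 3 tools, and 3 had an unadjusted p below 0.05, all higher.

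**Figure D2:**
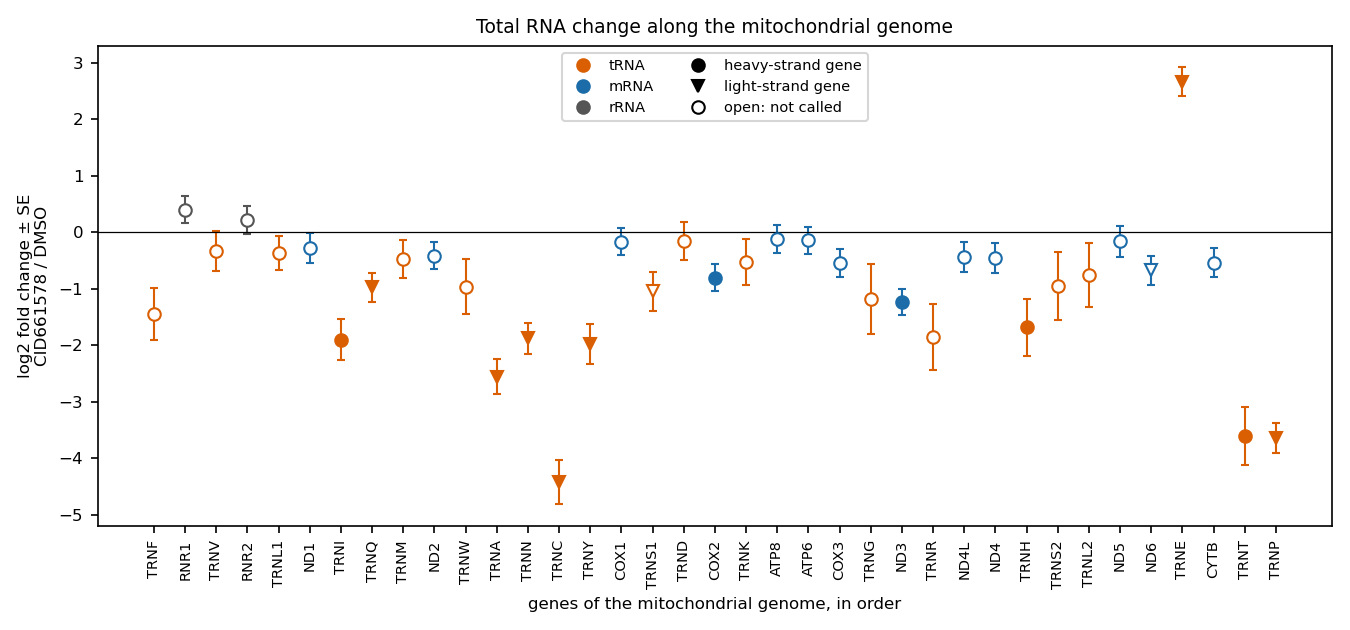
Log2 fold change of CID661578 over DMSO in total RNA (vertical axis, bars are the standard error) for the 37 genes of the mitochondrial genome in order (horizontal axis). Triangles are light-strand genes, circles heavy-strand genes and open symbols genes that did not pass: TRNE is the 1 called higher, at 2.66, and TRNC, TRNP and TRNT lie below -3.

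Genes of the integrated stress response formed the second group. Of 56 listed genes 53 were tested, 14 rose and none fell, which is 26.4% called higher beside 0.884% of all genes tested, and the list's median log2 fold change was 0.29. The 14 were the transcription factors DDIT3, ATF3, ATF4, NUPR1 and CEBPG, the phosphatase subunit PPP1R15A, the regulators DDIT4, TRIB3, GDF15, CHAC1, SESN2, STC2 and VLDLR, and the cystine transporter SLC7A11. The 11 enzymes of amino acid synthesis and the 12 aminoacyl-tRNA synthetases did not pass, with medians of 0.22 and 0.21.

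DDIT4 (REDD1, an inhibitor of mTORC1, on chr10:72273924-72276036) read 34.1, 25.1, 255 and 28.9 CPM with DMSO and 297, 392, 333 and 513 CPM with CID661578. The DMSO libraries of replicates 1, 2 and 4 lay below 35 CPM, and that of replicate 3 lay just below the lowest treated library (log2 fold change 3.00, SE 0.33, adjusted p = 1.13e-09). Within the pair of replicate 3 the DDIT4 difference was 0.38, against a mean of 3.75 over the other pairs. Here and elsewhere the SE and p draw on a spread shared across genes and do not measure that scatter between pairs. TRIB3, a pseudokinase that restrains ATF4 and AKT, read 20.8, 17.9, 215 and 11.3 CPM and 95.5, 223, 232 and 155 CPM. In this gene DMSO replicate 3 lay within the range of the treated libraries (log2 fold change 2.47, SE 0.33, adjusted p = 2.74e-07).

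The transcription factors showed the same layout. DDIT3 (CHOP, which drives late stress genes) read 64.1, 43.6, 334 and 58.4 CPM with DMSO and 339, 173, 482 and 285 CPM with CID661578 (log2 fold change 1.81, SE 0.25, adjusted p = 8.54e-07). ATF3, a stress-induced repressor and activator, read 6.21, 6.63, 66.7 and 4.03 CPM and 23.9, 25.3, 131 and 28.7 CPM (log2 fold change 1.88, SE 0.28, adjusted p = 3.38e-06). In both, replicate 3 was the highest library of each treatment. ATF4 itself read 66.1, 134, 348 and 61.3 CPM and 149, 237, 494 and 245 CPM, with replicate 3 highest again and a smaller rise (log2 fold change 1.12, SE 0.24, adjusted p = 0.00445). NUPR1 and CEBPG, a stress-induced chromatin protein and a dimer partner of ATF4, rose by 0.97 and 1.04 on the log2 scale (adjusted p = 0.0301 and 0.0581).

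Among the regulators, CHAC1, which degrades glutathione, read 13.4, 18.3, 112 and 7.45 CPM with DMSO and 59.2, 147, 108 and 92.2 CPM with CID661578 (log2 fold change 2.21, SE 0.32, adjusted p = 2.66e-06). SESN2, a leucine sensor that inhibits mTORC1, read 5.14, 6.53, 111 and 6.6 CPM and 35.4, 94.3, 80.8 and 68 CPM (log2 fold change 2.47, SE 0.37, adjusted p = 4.06e-06). Both were higher in 3 of 4 pairs, the pair of replicate 3 being the exception at -0.06 and -0.46 on the log2 scale. GDF15, a secreted stress hormone, rose by 2.08 (adjusted p = 6.82e-07) and PPP1R15A (GADD34), which directs the dephosphorylation of eIF2, by 1.20 (adjusted p = 0.00239). STC2, a secreted glycoprotein, and SLC7A11, which imports cystine, rose by 1.27 and 1.13 (adjusted p = 0.00252 and 0.0762). VLDLR, a lipoprotein receptor, stayed at or below 3.51 CPM and rose by 1.69 (adjusted p = 0.128).

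DMSO replicate 3 was the highest of the 4 DMSO libraries for all 14 of these genes, and for 28.3% of all genes tested. The median difference of the 14 within a pair was 1.81, 1.98 and 2.53 on the log2 scale in replicates 1, 2 and 4, and 0.44 in replicate 3. Without replicate 3 the estimates grew: DDIT4 to 3.75 (adjusted p = 4.76e-30), TRIB3 to 3.21 (adjusted p = 6.02e-20), DDIT3 to 2.22 (adjusted p = 1.97e-11), SESN2 to 3.34 (adjusted p = 5.76e-18), CHAC1 to 2.92 (adjusted p = 9.93e-16) and STC2 to 1.74 (adjusted p = 1.22e-06). Replicate 3 was singled out after these values were seen, so these p-values overstate the evidence. Without replicate 1 the same genes stood, in that order, at 2.94, 2.58, 1.60, 2.30, 2.22 and 1.11. Their adjusted p was 0.0729, 0.102, 0.0457, 0.198, 0.142 and 0.225, so SESN2 and STC2 did not pass. Without replicate 2 or 4 STC2 alone among them did not pass, at 1.01 and 1.16 (adjusted p = 0.176 and 0.164). ATF4 did not pass without replicate 4, at 0.83 (adjusted p = 0.858). The number called was 16 without replicate 3, 9 without replicate 1, 10 without replicate 2 and 7 without replicate 4. Without the replicate block none of the 14 passed in edgeR's test, DDIT4 coming nearest at 2.16 (adjusted p = 0.31). With DESeq2 and the block, CHAC1 stood at 2.24 (adjusted p = 0.136), TRIB3 at 2.50 (adjusted p = 0.083) and SESN2 at 2.54 (adjusted p = 0.148), while VLDLR, at 1.71 (adjusted p = 0.202), did not pass. What set replicate 3 apart was not tested.

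**Figure D3:**
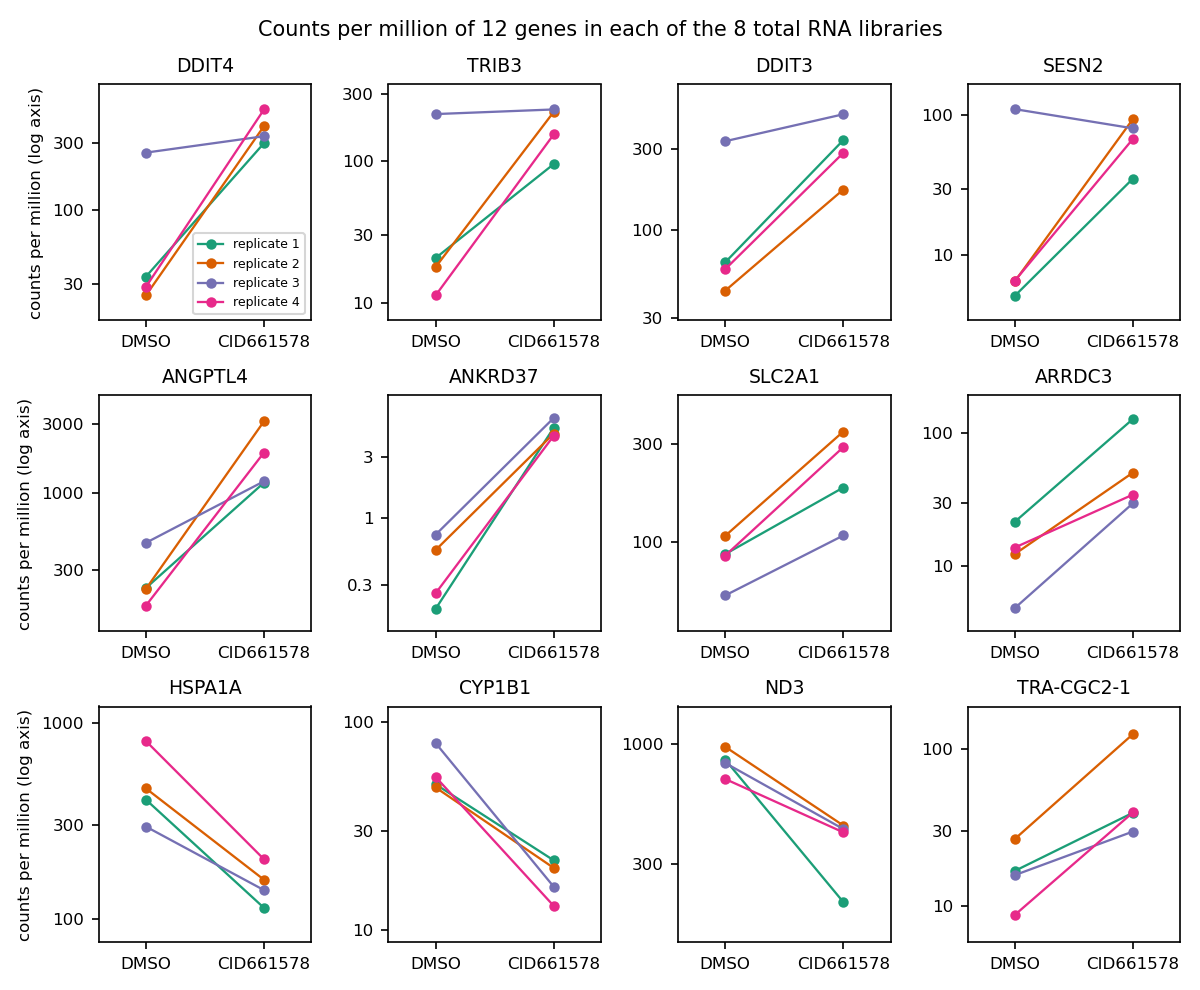
CPM (vertical axis, logarithmic) of 12 genes in the 4 DMSO and the 4 CID661578 total RNA libraries, with lines joining the libraries of 1 replicate number. DDIT4, TRIB3, DDIT3 and SESN2 rise steeply in replicates 1, 2 and 4 and start high in DMSO replicate 3, whereas ANKRD37, ARRDC3, HSPA1A and CYP1B1 move alike in all 4 pairs.

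Some genes known from the response to low oxygen also rose. Of 36 listed 31 were tested, 8 rose and none fell, and the median log2 fold change of the 31 was 0.64. That is 25.8% called higher, beside 0.884% of all genes tested. The count was 3 without the replicate block, 4 without replicate 2 or replicate 4, 5 without replicate 1 and 10 without replicate 3. Both DDIT4 and STC2 also stand in the stress response list. ANGPTL4, a secreted inhibitor of lipoprotein lipase, read 226, 223, 459.9 and 171 CPM with DMSO and 1185, 3111, 1211 and 1903 CPM with CID661578, with no overlap (log2 fold change 2.78, SE 0.28, adjusted p = 1.65e-11). ANKRD37, an ankyrin repeat protein induced by HIF1, read 0.194, 0.56, 0.739 and 0.257 CPM and 5.07, 4.57, 6.06 and 4.39 CPM, the highest fold change of all genes tested (log2 fold change 3.54, SE 0.49, adjusted p = 8.90e-07). The DMSO level of ANKRD37 corresponds to 2 to 9 reads a library, so the rise is far better known than its size. SLC2A1 (GLUT1, the glucose transporter of most cells) read 86.9, 107, 54.6 and 85.5 CPM and 184, 346, 107 and 289.8 CPM. It was higher in 4 of 4 pairs (log2 fold change 1.38, SE 0.23, adjusted p = 6.18e-05).

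The other members that rose were PFKFB4, which makes the activator of phosphofructokinase (log2 fold change 1.84, SE 0.42, adjusted p = 0.0126), HK2, the hexokinase of growing cells (log2 fold change 1.33, SE 0.34, adjusted p = 0.0455), and ADM, the vasodilator adrenomedullin (log2 fold change 0.92, SE 0.23, adjusted p = 0.0301). With replicate 1, 2 or 4 left out PFKFB4 did not pass (adjusted p = 0.16, 0.364 and 0.491), nor did HK2 (adjusted p = 0.241, 0.176 and 0.754). ADM did not pass without replicate 2 or 4 (adjusted p = 0.364 and 0.841). Without replicate 3 all of them passed. The 5 tested HIF subunits and hydroxylases did not pass. Of the wider list of 19 tested glycolysis genes, SLC2A1 and HK2 alone rose (10.5%, beside 0.884% of all genes tested) and none fell. The median was 0.18. MIR210HG, the host transcript of a hypoxia-induced microRNA on chr11:565657-568457, was not among the genes tested because of a 0 in 1 library. It had 3, 4, 4 and 0 reads with DMSO and 47, 37, 42 and 62 with CID661578, and without the filter its log2 fold change was 4.08 (adjusted p = 2.52e-11). UPK1A-AS1 (chr19:35667948-35673291) was left out for the same reason, with 4, 6, 0 and 3 reads against 33, 13, 15 and 22.

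DEPP1 and ARRDC3, in neither list, were among the genes with the smallest p. DEPP1, a regulator of autophagy induced by FOXO factors and by progesterone, read 9.12, 5.51, 7.55 and 7.88 CPM and 32.2, 96.5, 25.9 and 60.4 CPM (log2 fold change 2.64, SE 0.31, adjusted p = 5.02e-09). ARRDC3, an arrestin that takes receptors from the cell surface and is a relative of TXNIP, read 21.5, 12.3, 4.84 and 13.8 CPM and 127, 50.4, 29.7 and 34.4 CPM (log2 fold change 2.13, SE 0.27, adjusted p = 7.84e-08). Neither overlapped between treatments. TXNIP itself, which blocks glucose uptake, went down from 3.4, 0.747, 9.28 and 5.05 CPM to 0.786, 0.305, 2.6 and 0.683 CPM (log2 fold change -2.09, SE 0.47, adjusted p = 0.00859).

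Promoters are shown for 5 of these genes, since they rose and their promoters hold the core letters that ATF4 or hypoxia-inducible factors are known to bind. Each is the 250 bases before the RefSeq start, from GRCh38.p14. In CHAC1 and ATF3 the capitals mark TGATGNAA, the composite of C/EBP and ATF sites, and in DDIT4, ANKRD37 and ANGPTL4 they mark ACGTG, the core of the hypoxia response element, on either strand.
CHAC1 (chr15:40953221-40953470, plus strand): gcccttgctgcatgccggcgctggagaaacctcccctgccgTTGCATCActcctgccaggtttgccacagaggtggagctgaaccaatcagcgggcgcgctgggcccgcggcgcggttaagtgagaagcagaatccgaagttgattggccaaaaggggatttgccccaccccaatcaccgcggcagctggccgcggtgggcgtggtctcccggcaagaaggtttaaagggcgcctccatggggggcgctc
ATF3 (chr1:212565157-212565406, plus strand): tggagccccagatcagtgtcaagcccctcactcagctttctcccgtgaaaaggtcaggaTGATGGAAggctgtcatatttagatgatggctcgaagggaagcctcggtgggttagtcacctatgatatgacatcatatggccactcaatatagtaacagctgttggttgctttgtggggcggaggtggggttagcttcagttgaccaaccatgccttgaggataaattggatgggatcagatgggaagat
DDIT4 (chr10:72273674-72273923, plus strand): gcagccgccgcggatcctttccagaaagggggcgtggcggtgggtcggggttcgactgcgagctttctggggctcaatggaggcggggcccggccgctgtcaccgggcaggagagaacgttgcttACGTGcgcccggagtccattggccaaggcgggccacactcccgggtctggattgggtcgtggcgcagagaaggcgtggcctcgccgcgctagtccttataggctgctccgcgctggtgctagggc
ANKRD37 (chr4:185396591-185396840, plus strand): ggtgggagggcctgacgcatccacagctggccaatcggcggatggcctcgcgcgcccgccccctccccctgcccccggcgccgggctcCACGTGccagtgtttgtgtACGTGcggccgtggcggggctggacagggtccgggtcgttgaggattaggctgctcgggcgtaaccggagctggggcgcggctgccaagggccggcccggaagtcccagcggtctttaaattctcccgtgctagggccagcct
ANGPTL4 (chr19:8363905-8364154, plus strand): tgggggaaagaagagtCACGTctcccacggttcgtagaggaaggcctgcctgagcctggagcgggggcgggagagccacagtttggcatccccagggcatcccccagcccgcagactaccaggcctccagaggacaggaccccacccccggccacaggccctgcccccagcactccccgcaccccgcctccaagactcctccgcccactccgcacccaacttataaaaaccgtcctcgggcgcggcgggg

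RefSeq promoters of 300 bases, 250 before and 50 after the start, were matched for 9654 of the genes tested, 72 of those called higher and 25 of those called lower. TGATGNAA stood in 3 of the 72 (CHAC1, ATF3 and BCL2A1), which is 4.17%, against 1.57% of all 9654. Of the 12 stress response genes that rose and were matched, 2 held it and the others did not. ACGTG stood in 27.8% of the 72 and 27.4% of all, and in 4 of the 8 hypoxia-induced genes that rose. CACGTG, which holds ACGTG, stood in 22.2% of the 72 and 10.5% of all, GCGTG in 54.2% and 52.1%, TGACGTCA in 4.17% and 3.42%, and TGANTCA in 9.72% and 4.41%. These are counts of letters on both strands and say nothing of binding.

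Some targets of hormones and growth factor signals rose, and most members of these lists did not pass. Over all genes tested, 0.884% were called higher. Of 11 tested glucocorticoid-induced genes 5 rose (45.5%) and none fell (median 0.59), 2 of them being ANGPTL4 and DDIT4. ERRFI1, an inhibitor of the EGF receptor, read 36.9, 44.4, 168 and 34 CPM and 189.7, 207, 227 and 117 CPM (log2 fold change 1.71, SE 0.26, adjusted p = 4.06e-06). DUSP1, a phosphatase of MAP kinases, read 39.7, 33.4, 32.3 and 19.4 CPM and 52.5, 109, 114 and 74.2 CPM (log2 fold change 1.48, SE 0.26, adjusted p = 1.33e-04). DUSP1 did not overlap between treatments, whereas in ERRFI1 DMSO replicate 3 lay above the lowest treated library. TSC22D3 (GILZ, an anti-inflammatory regulator) rose by 1.60 (adjusted p = 0.00215), with -0.22 in the pair of replicate 3. Without replicate 3 it stood at 2.23 (adjusted p = 1.77e-06). It did not pass without replicate 1, at 1.11 (adjusted p = 0.265), or with DESeq2, at 1.65 (adjusted p = 0.308). Without replicate 2 or 4 it passed, at 1.49 and 1.51 (adjusted p = 0.0549 and 0.0454).

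Of 34 tested immediate early and ERK feedback genes 7 rose (20.6%) and none fell (median 0.38). Besides ATF3, ERRFI1 and DUSP1 these were DUSP5, a phosphatase of ERK (1.28, adjusted p = 0.00763), HBEGF, a ligand of the EGF receptor (1.26, adjusted p = 0.00693), and the transcription factors KLF6 (0.86, adjusted p = 0.117) and JUN (0.94, adjusted p = 0.133). With DESeq2 KLF6 did not pass, at 0.86 (adjusted p = 0.198), and without replicate 3 JUN did not, at 1.02 (adjusted p = 0.24). HBEGF stood at 1.64 (adjusted p = 4.83e-04) without replicate 3 and at 1.25 (adjusted p = 0.147) without replicate 1. It did not pass without replicate 2, at 1.04 (adjusted p = 0.197), or without replicate 4, at 1.07 (adjusted p = 0.445). Of 11 tested YAP targets 3 rose (27.3%): the matricellular proteins CCN1 (log2 fold change 0.95, SE 0.23, adjusted p = 0.0191) and CCN2 (log2 fold change 0.99, SE 0.23, adjusted p = 0.0112), and ANKRD1, a nuclear ankyrin repeat protein (1.08, adjusted p = 0.117). CCN1 read 583, 392, 563 and 394 CPM and 896, 937, 829 and 1022 CPM, with no overlap. Of 18 tested NF-kB and inflammatory genes 3 rose (16.7%), namely the chemokine CXCL8 (1.60, adjusted p = 0.00315), the cytokine LIF (1.45, adjusted p = 0.00779) and the ubiquitin ligase BIRC3 (0.97, adjusted p = 0.0354), and the 9 subunits and inhibitors did not pass. CDKN1A (p21, an inhibitor of cyclin-dependent kinases) rose by 0.93 (adjusted p = 0.0581), as did the metal-responsive MT1E (0.85, 0.0703) and SLC30A1 (0.83, 0.133) and the haem oxygenase HMOX1 (0.86, 0.124). HMOX1 did not pass with DESeq2, at 0.86 (adjusted p = 0.157). Leaving out replicate 3 ended the calls of HMOX1, 0.96 (adjusted p = 0.181), SLC30A1, 0.76 (adjusted p = 0.464), and ANKRD1, 1.18 (adjusted p = 0.207).

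Some transcripts of RNA polymerase III, the enzyme of tRNA genes and other short RNAs, rose as well. This list was drawn up after their values were seen. Of 566 listed genes 506 had a 0 in 1 or more libraries and were not tested, 291 of them with no count in any. Of the 60 tested, 22 rose (36.7%, beside 0.884% of all genes tested) and none fell, and the median log2 fold change of the 60 was 1.16. The 22 comprised 10 cytosolic tRNA genes of 33 tested, 7 of 14 snaR genes and 5 of 13 others. TRA-CGC2-1, a gene for the tRNA of alanine, read 16.7, 26.7, 15.7 and 8.74 CPM with DMSO and 39.2, 125, 29.8 and 39.4 CPM with CID661578, with no overlap (log2 fold change 1.64, SE 0.27, adjusted p = 3.68e-05). SNAR-A11, a small RNA of the testis and of transformed cells, read 108, 209, 144 and 116 CPM and 265, 824, 242 and 290.1 CPM (log2 fold change 1.33, SE 0.23, adjusted p = 1.25e-04). In both, replicate 2 was the highest library of each treatment. RN7SK, which holds the elongation factor P-TEFb in check, rose by 1.16 (adjusted p = 0.0050), BCYRN1, a cytoplasmic RNA of Alu origin, by 0.94 (adjusted p = 0.0219) and RMRP, the RNA of a ribonuclease, by 1.29 (adjusted p = 0.0418).

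The summed share of these transcripts was 0.207%, 0.285%, 0.179% and 0.192% of the reads with DMSO and 0.402%, 0.828%, 0.246% and 0.351% with CID661578. It was higher in 4 of 4 pairs (exact permutation test within pairs, two-sided, p = 0.125, the smallest possible). The snaR genes are near-identical copies, as are several tRNA genes, so their calls are not separate. The libraries were primed on poly(A), so short RNAs without a tail were read only in part. Of the 60, 8 were called higher without replicate 2, 7 without replicate 4, 5 with no 0 allowed in the 24 libraries and 0 without the replicate block.

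Among genes that fell outside the mitochondrial genome were chaperones of the HSP70 family. Of 17 tested cytosolic heat shock genes 3 fell and none rose, and the median was -0.28. That is 17.6% called lower, beside 0.342% of all genes tested, and HSPA1A and HSPA1B among the 3 are near-identical and share reads. Outside that list HSPA2 and the HSPA8 pseudogenes HSPA8P1, HSPA8P7 and HSPA8P8 were also called lower. HSPA1A, the main heat-induced HSP70, read 405, 462, 295 and 805 CPM with DMSO and 114, 158, 139.8 and 201 CPM with CID661578, with no overlap (log2 fold change -1.62, SE 0.23, adjusted p = 1.26e-06). Its neighbour HSPA1B changed by -1.60 (adjusted p = 1.85e-06). HSPA8, the constitutive HSP70, read 4422, 4834, 1163 and 2926 CPM and 2262, 1187, 1166 and 1139 CPM (log2 fold change -1.09, SE 0.25, adjusted p = 0.012). It was lower in 3 of 4 pairs, and in replicate 3 the difference was 0.004 on the log2 scale. Without replicate 3 it stood at -1.45 (adjusted p = 5.69e-05). With replicate 1, 2 or 4 left out it stood at -1.14, -0.78 and -0.99 (adjusted p = 0.18, 0.382 and 0.526) and did not pass. Of 25 tested genes of the endoplasmic reticulum's chaperones and stress sensors, DDIT3 alone passed.

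CYP1B1, an enzyme of xenobiotic and oestrogen metabolism induced by the aryl hydrocarbon receptor, read 50.4, 48.6, 79.6 and 54.6 CPM with DMSO and 21.7, 19.9, 16.2 and 13.1 CPM with CID661578. All 4 treated libraries lay below all 4 controls (log2 fold change -1.71, SE 0.26, adjusted p = 7.67e-06). It was the only one of 7 tested targets of that receptor to pass (14.3% called lower, beside 0.342% of all genes tested). CYP1A1, the best known of them, was left out of the test for its zeros and named after its counts were seen: 4, 24, 13 and 20 reads with DMSO and 0, 0, 0 and 7 with CID661578. Without the filter its log2 fold change was -3.50 (adjusted p = 0.0236).

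SKP2, the ubiquitin ligase subunit that targets p27, read 17.6, 15.7, 14.3 and 26.2 CPM and 7.17, 6.3, 6.23 and 8.69 CPM, with no overlap (log2 fold change -1.35, SE 0.30, adjusted p = 0.00763). ZC3HAV1, an antiviral RNA-binding protein, fell by 1.20 on the log2 scale (adjusted p = 0.0278) and CDCA8, a subunit of the chromosomal passenger complex, by 0.76 (adjusted p = 0.117). CDCA8 was the only one of 40 tested mitosis genes to pass, although 36 of the 40 had an estimate below 0 (median -0.27), where 7373 of all 14601 genes did. DESeq2 called 3 of the 40 lower. CNEP1R1, a regulator of lipid synthesis at the nuclear envelope, and the long non-coding RNA LINC02210 fell by 1.22 and 1.71 (adjusted p = 0.0345 and 0.0178). Of 38 tested DNA replication genes 0 passed in edgeR's test, DESeq2 or limma, and 6 had an unadjusted p below 0.05, all lower. Of 28 genes of cholesterol synthesis 0 passed in any of the 3 tools, and 1 had an unadjusted p below 0.05.

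Of 15 listed genes of the cap-binding complex, MNK and its partners 13 were tested and 1 passed. EIF4EBP2, an inhibitor of eIF4E, fell (log2 fold change -1.05, SE 0.29, adjusted p = 0.0894), from 25.4, 23, 17.4 and 26.6 CPM to 15.7, 5.08, 11.2 and 15.3 CPM. With replicate 1, 2 or 4 left out EIF4EBP2 stood at -1.17, -0.71 and -1.14 (adjusted p = 0.176, 0.534 and 0.491) and did not pass. Without replicate 3 it passed, at -1.19 (adjusted p = 0.0946). MKNK2, the gene of MNK2, read 2.23, 2.61, 9.11 and 6.08 CPM with DMSO and 2.71, 8.03, 7.96 and 4.78 CPM with CID661578, a log2 difference of 0.31 with an SE of 0.37. MKNK1 had -0.38 (SE 0.27), EIF4E 0.15 (SE 0.23), the scaffold EIF4G1 -0.14 (SE 0.22) and EIF4EBP1 0.16 (SE 0.23), and none of these passed. EIF4A1, the helicase of the complex, is listed at 0 in all 8 libraries although its product is used by every cell, so nothing can be read from it. MYC and CCND1, whose translation is known to depend on eIF4E, had 0.54 and -0.02 (adjusted p = 0.554 and 0.996). CASTOR2, a relative of an arginine sensor upstream of mTORC1, fell by 1.58 (adjusted p = 0.0397), so with DDIT4 and SESN2 the 18 tested mTORC1 regulators had 2 genes higher and 2 lower. These are 11.1% each way, beside 0.884% of all genes tested called higher and 0.342% called lower. Of 77 cytosolic ribosomal protein genes 0 passed in edgeR's test, DESeq2 or limma, 10 had an unadjusted p below 0.05, all higher, and 68 had an estimate above 0, with a median of 0.23.

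The polysome-associated RNA of the same plates gives a second reading, though from the same lysates and so not an independent one. There 13667 of the genes were tested, and 8.3% were called higher and 5.8% lower. Of the 129 genes higher in total RNA 107 were tested there, 59 were called higher and 80 were higher by estimate. Of the 50 lower genes 44 were tested, 27 were called lower and 39 were lower by estimate. In polysome-associated RNA the log2 fold change was 2.91 (SE 0.43, adjusted p = 2.33e-04) for DDIT4 and 2.05 (SE 0.26, adjusted p = 3.68e-05) for DDIT3. CYP1B1 had -1.71 (SE 0.19, adjusted p = 5.18e-06) there and HSPA1A -1.88 (SE 0.20, adjusted p = 2.05e-06). CXCL8 had 3.08 (SE 0.40, adjusted p = 3.68e-05) in polysome-associated RNA beside 1.60 in total RNA. The 13 mitochondrial mRNAs, of which 2 fell in total RNA, all fell there, by 1.53 to 4.13 on the log2 scale. What carried these mRNAs into that fraction was not tested. TRNP had -3.70 (SE 0.28, adjusted p = 8.60e-09) and TRNE 1.06 (SE 0.34, adjusted p = 0.072). Without replicate 3 the polysome value of DDIT4 was 3.65 (adjusted p = 9.69e-09) and that of TRNE 0.64 (adjusted p = 0.379), which did not pass. SNAR-A11 had -0.49 (SE 0.24, adjusted p = 0.24) and RN7SK -0.34 (SE 0.45, adjusted p = 0.719), and neither of these small RNAs was called. Differences between the 2 kinds of RNA were not tested.

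Cercosporamide shares the DMSO libraries, so its values are set beside those of CID661578 and no more, and its dose, 5 µM, was not the same. Against DMSO it left DDIT4 at 0.02 (SE 0.40, adjusted p = 0.993), ANGPTL4 at 0.01 (SE 0.32, adjusted p = 0.996) and TRNP at 0.76 (SE 0.23, adjusted p = 0.269) on the log2 scale. A direct test of CID661578 against cercosporamide over the 12 total RNA libraries called 42 of 14051 genes higher with CID661578 (0.299%) and 31 lower (0.221%). These counts were 153 and 93 without replicate 3, 13 and 14 without replicate 1, 17 and 18 without replicate 2, 12 and 13 without replicate 4, and 5 and 8 without the replicate block. The difference was 3.07 (SE 0.44, adjusted p = 0.00109) for DDIT4, 2.74 (SE 0.34, adjusted p = 1.70e-04) for ANGPTL4 and 2.07 (SE 0.34, adjusted p = 0.00454) for ARRDC3. For TRNP it was -4.41 (SE 0.27, adjusted p = 1.07e-08), for TRNC -5.45 (SE 0.44, adjusted p = 7.30e-07) and for TRNE 2.06 (SE 0.21, adjusted p = 1.42e-05). HSPA1A and CYP1B1, lower with CID661578 than with DMSO, differed from cercosporamide by -0.87 (SE 0.31, adjusted p = 0.354) and -0.92 (SE 0.28, adjusted p = 0.265), and SNAR-A11 by 0.34 (SE 0.21, adjusted p = 0.652), none of which passed. Without replicate 3 both HSPA1A and CYP1B1 passed, at -1.37 (adjusted p = 0.0104) and -1.13 (adjusted p = 0.0423). DDIT4 then stood at 3.51 (adjusted p = 5.18e-07), ANGPTL4 at 2.78 (adjusted p = 1.22e-05), ARRDC3 at 2.56 (adjusted p = 1.85e-05), TRNP at -4.36 (adjusted p = 5.11e-08), TRNC at -5.11 (adjusted p = 5.18e-07), TRNE at 2.01 (adjusted p = 5.99e-05) and SNAR-A11 at 0.35 (adjusted p = 0.552). For CXCL8 the direct difference was -1.26 (SE 0.30, adjusted p = 0.115), while against DMSO cercosporamide had 2.89 (SE 0.33, adjusted p = 4.49e-04). Without replicate 3 these were -0.94 (adjusted p = 0.27) and 2.57 (adjusted p = 0.00981).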

How the data were processed

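The authors made Smart-seq2 libraries, removed adapters and ribosomal RNA reads with BBDuk, aligned with HISAT2 to hg38 and counted reads per RefSeq gene with featureCounts in its default setting, which does not use strand. The deposited file holds raw counts per gene for the 24 libraries. The submitters' processing notes also name bcl2fastq 2.20.0.422 and FastQC 0.11.8. Smart-seq2 primes on poly(A), so short RNAs without a tail are read only in part.

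Genes with no 0 in the 8 libraries were tested with edgeR 4.0.16 (R 4.3.3): TMM scaling, quasi-likelihood F test, replicate number as block, Benjamini-Hochberg adjustment over all genes tested, called at an adjusted p below 0.15. CPM are reads per 1000000 reads on the genes tested, with each library's total scaled by its TMM factor. The summed level of the endocrine markers is per 1000000 reads on genes without that scaling. The SE is the absolute log2 fold change over the root of F. Both SE and p rest mainly on a spread shared across genes (63.8 prior against 3 residual degrees of freedom). They are therefore not the spread of a gene's own 4 pairs. The replicate is a batch in the study's methods. Deviations from the treatment mean correlated across genes at 0.069 to 0.26 between libraries of the same number. The methods call the 4 plates of a treatment biological replicates, all of 1 cell line. Depth was 10336149 to 12184749 reads on genes. Shares were compared by exact permutation within pairs. DESeq2 1.42.0 and limma 3.58.1 were alternatives, beside other scalings, filters and samples, and the fit was tested on simulated data.

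The members and gene lists were chosen with earlier results of these data known. Named genes were up to 15 a direction with the smallest p among those called with the same sign in 4 of 4 pairs and a mean log2 CPM of at least 2, up to 4 a list with the smallest p, a set of genes of the cap-binding complex, mTORC1 and the mitochondrial mRNAs, and up to 6 of the genes dropped for a 0. TRNT, TRNQ, TRNH, RNR1, RNR2, CHAC1, PPP1R15A, STC2, ATF4, NUPR1, CEBPG, VLDLR, PFKFB4, ADM, DUSP5, TSC22D3, JUN, RN7SK, BCYRN1, RMRP, UPK1A-AS1 and CYP1A1 were named after their values were seen.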

Additional observations from a re-analysis of the deposited data

Results flagged for a closer look

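In 17 of 204 sets of 4 libraries of 1 treatment, the highest or lowest value of a named gene lay far from the other 3, where chance gives about 1 in 20. The DMSO library of replicate 3 gave 5 of the 17. It read 254.8 CPM for DDIT4 (other DMSO libraries 25.11 to 34.05), 110.8 for SESN2 (5.142 to 6.595), 81.93 for PPP1R15A (26.32 to 29.11) and 167.6 for ERRFI1 (34.0 to 44.43), all high, and 19.13 for MKNK1 (24.67 to 25.81), low. With CID661578, replicate 3 was high for ATF3 at 130.6 CPM (others 23.85 to 28.69) and low for HK2 at 5.018 (11.81 to 12.6) and for ND4 at 1556 (4190.0 to 4899).

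In replicate 2, the DMSO library was low for ND1 at 905.5 CPM (others 1450.0 to 1582) and ATP6 at 1495 (2227 to 2416). The same library was high for TRV-AAC1-2, a tRNA gene for valine, at 0.4667 CPM, where the others held 0.0821 to 0.097. The CID661578 library of replicate 2 was high for SNAR-A11 at 824.1 CPM (241.6 to 290.1) and RN7SK at 195 (65.88 to 78.38). The CID661578 library of replicate 1 was low for ND3 at 204.7 CPM (412.8 to 442.1) and high for HSPA8 at 2262 (1139 to 1187). That of replicate 4 was low for SLC30A1 at 26.06 CPM (58.05 to 67.98). LINC02210 was low in DMSO replicate 4 at 4.026 CPM (7.964 to 8.401). What set these libraries apart was not tested.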

How the results depend on the processing

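The calls depended most on the replicate block and on single replicates. Without the block 8 genes were called higher and 11 lower in total RNA, all among those called with it. The polysome-associated counts were then 72 and 54 and those against cercosporamide 5 and 8. The lists then had 0 called higher for the integrated stress response, 3 for hypoxia, 0 for RNA polymerase III transcripts and 4 mitochondrial tRNAs called lower. Of the 77 called genes that were named, 18 passed without the block and 59 did not, and none changed sign. Leaving out replicate 4 ended the calls of 39 of the 77, replicate 2 of 27, replicate 1 of 21 and replicate 3 of 8. Each library correlated best with the library of its own number, which is a hint of pairing in the data, although replicate 1 had only 0.069.

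With 12 libraries in the fit 61 genes were called higher and 27 lower, and 13 RNA polymerase III transcripts. At an adjusted p below 0.05 these were 62, 25 and 13. With no 0 in 24 libraries, 5 mitochondrial tRNAs were called lower and 5 RNA polymerase III transcripts higher, since fewer genes were tested. DESeq2, limma, other scalings, filters and a GC correction gave 86 to 166 genes higher and 37 to 75 lower.

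Leaving out 1 replicate gave 34 to 139 genes higher and 18 to 52 lower in total RNA, 523 to 1014 and 325 to 1125 in polysome-associated RNA, and 12 to 153 and 13 to 93 against cercosporamide, where replicate 3 gave the highest of both. The lists had 7 to 16 genes called for the integrated stress response, 4 to 10 for hypoxia, 7 to 9 for mitochondrial tRNA and 7 to 17 for RNA polymerase III transcripts. The differences in shares kept their direction.

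Without replicate 3, estimates that were below 0 turned, with the lowest over the 4 replicates left out in brackets: ND1 to 0.16 (-0.74), ND4L to 0.0023 (-0.90), ND5 to 0.33 (-0.67), COX1 to 0.21 (-0.38), ATP6 to 0.12 (-0.44) and ATP8 to 0.24 (-0.57). In replicate 3 alone, a split chosen after seeing the data, CHAC1 stood at -0.058, SESN2 at -0.46, STC2 at -0.23, PFKFB4 at -0.040, TSC22D3 at -0.22, KLF6 at -0.29 and HSPA8 at 0.0040. Genes that never passed also turned. With 1 replicate left out MKNK2 ran from -0.11 to 0.54, EIF4E from -0.025 to 0.30, EIF4G1 from -0.23 to 0.0084 and CCND1 from -0.22 to 0.14. CCND1 stood at 0.0033 without the block and 0.033 with the GC correction. The cause was not tested. At 10336149 reads or more, genes below about 1 CPM carry wide counting error.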
